A study of Mus musculus with 6 samples.

Results

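Probes of the immunoglobulin light chain loci were followed in mouse pre-pro-B cells that lack Ebf1 and were given the gene back, or not, by retrovirus. The set comprised 56 non-control probes of the 41174 on the array. They were chosen by position and annotation, from a window of the mm9 genome around each locus. The kappa window on chromosome 6 gave 47 members, between 67560270 and 70672577, and the lambda window on chromosome 16 gave 9, between 19061826 and 19085406. Each names immunoglobulin, Igk or Igl in its description or gene name. The other 51 of the 107 probes in those windows did not meet the annotation criterion, although 17 of them carry antibody descriptions in other spellings.

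The Ebf1 virus cells (n = 3 arrays) carried pMYs-Ebf1-IRES-EGFP and the control virus cells (n = 3 arrays) carried pMYs-IRES-EGFP. The sample titles name the Ebf1 virus pMYs Ebf1beta. Both groups had the genotype label Ebf -/-, and grew over OP9 stroma in medium with Flt3-ligand, stem cell factor and interleukin 7 (each cytokine at 10 ng/ml). They were cultured for 24 h after infection and sorted for EGFP, the marker that both viruses carry. The age of the source animals, the number of animals and whether the replicates were separate cultures are not given in the labels, so p-values measure the spread between these samples, which may be technical. One Cy3 channel was read on each of 6 arrays. The number of arrays limits the precision.

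An antibody light chain is made from a kappa or a lambda gene. Each locus holds variable (V) and joining (J) segments and a constant region, and a V and a J segment must be joined by the RAG recombinase before a complete chain can be transcribed. In B cell development this joining usually follows that of the heavy chain. Until then the surrogate light chain, built from Igll1 and the Vpreb proteins, takes the light chain's place beside the heavy chain. Unrearranged V segments can also be transcribed, and such germline transcripts are known to accompany the opening of a locus. Ebf1 is a transcription factor required for commitment to the B lineage.

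Each probe is a single strand of 60 bases. Of the 56, 37 bear the name of a V segment that RefSeq (GRCm38.p6 names) also lists as one, 1 bears the name of a lambda constant region (IGLC3) and 18 have no segment name. No member is a kappa constant region probe. The following probes carry the results. The first pair is Igk-V1 (chr6:68071741-68071800, plus strand, mm9) and IGKV1-133 (chr6:67675577-67675636, plus strand). Over the 58 positions at which they align they differ at 5, which are in capitals, and they show how alike the called probe is to one that missed the filter on detection.
Igk-V1: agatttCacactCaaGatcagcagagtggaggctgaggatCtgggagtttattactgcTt
IGKV1-133: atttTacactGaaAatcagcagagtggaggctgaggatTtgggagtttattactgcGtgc
The second pair is IGKV4-57 (chr6:69526135-69526194, minus strand) and Igk-V38 (chr6:68860565-68860624, minus strand), which differ at 2 of 57 aligned positions, again in capitals.
IGKV4-57: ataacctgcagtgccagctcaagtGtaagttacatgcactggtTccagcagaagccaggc
Igk-V38: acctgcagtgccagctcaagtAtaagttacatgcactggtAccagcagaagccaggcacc
The only member detected on every array was IGKV14-111 (chr6:68206771-68206830, plus strand).
IGKV14-111: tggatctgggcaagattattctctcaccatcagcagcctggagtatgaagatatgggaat

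The probes whose mapped ends lie over 1 kb apart are shown because their letters come from places that are far from each other in the germline. There were 3, at chr6:70654131-70672577 (plus strand, L18942) and at chr16:19063333-19085147 and chr16:19063348-19085165 (minus strand, both annotated Igl-V1). Capitals mark the longest run shared by the kappa probe and the first lambda probe, 12 bases near the 3′ end, which the second lambda probe does not hold.
L18942: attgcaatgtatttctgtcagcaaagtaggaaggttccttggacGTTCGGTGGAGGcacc
Igl-V1, first: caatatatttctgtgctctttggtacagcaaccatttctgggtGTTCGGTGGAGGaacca
Igl-V1, second: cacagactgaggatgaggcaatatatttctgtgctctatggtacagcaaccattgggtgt
The lambda constant region probe IGLC3 lies at chr16:19065462-19065521 on the minus strand.
IGLC3: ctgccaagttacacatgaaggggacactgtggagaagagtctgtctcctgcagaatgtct

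The 56 light chain probes gave little signal in either group. None of them is a kappa constant region probe, so they do not cover every transcript of the loci. A probe was counted as detected when the scanner software set its flag for a signal well above background. By this flag, 3 of the 56 probes (5.36%) were detected on every Ebf1 virus array and 1 (1.79%) on every control virus array, while the same held for 49.2% and 45.4% of all non-control probes. On at least 1 array, 20 of 56 were detected in Ebf1 virus cells and 7 in control virus cells, against 25408 and 21786 of the 41174 probes. On at least 2 arrays the counts were 11 and 2. No array of either group detected 34 of the 56 probes (60.7%), whereas 36.3% of all probes were detected on none. In bulk RNA, fewer cells that carry a transcript and less of it per cell cannot be told apart.

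The 34 probes detected on no array had processed signals of 1.69 to 10.8 (median 2.62) in Ebf1 virus cells and 1.67 to 5.19 (median 2.79) in control virus cells, in arbitrary units on a linear scale. The lowest signal of any probe called well above background was 8.42 to 10.6 on the Ebf1 virus arrays and 8.39 to 13.2 on the control virus arrays. The 22 probes detected on at least 1 array ranged up to 409 in Ebf1 virus cells and 238 in control virus cells. Their median GC content was 46.7%, against 43.3% for the 34 that were not detected, and the part of base composition in detection was not tested.

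The excess of detected light chain probes in Ebf1 virus cells rested largely on 1 array. Ebf1 virus replicates 1, 2 and 3 detected 8, 6 and 20 of the 56 probes, and control virus replicates 1, 2 and 3 detected 5, 2 and 3. As shares these were 14.3%, 10.7% and 35.7% on the Ebf1 virus arrays and 8.93%, 3.57% and 5.36% on the control virus arrays, below the share of all probes on each of the 6. The median processed signal of the 56 probes was 2.46, 3.07 and 6.79 on the Ebf1 virus arrays and 3.18, 2.97 and 2.31 on the control virus arrays, so that replicate 3 was the highest here as well. All 20 probes detected on any Ebf1 virus array were detected on replicate 3, and 8 of them on that array only. Replicate 3 also had the highest share of all probes above background, 59.8%, against 52.8% and 50.4% on the other Ebf1 virus arrays and 46.3% to 50.2% on the control virus arrays. It likewise detected 14 of the 51 other probes in the windows, against 8 and 6 on the other Ebf1 virus arrays and 6 or 7 on each control virus array.

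Detection on more Ebf1 virus than control virus arrays was seen for 18 of the 56 probes (32.1%), and the opposite for 2. Over all probes these shares were 14.5% and 2.69%. Among probes whose array counts differed between the groups, 90% of the light chain probes (18 of 20) and 84.3% of all probes (5961 of 7069) had more Ebf1 virus arrays. With replicate 3 of both groups left out, 9 light chain probes (16.1%) were detected on more Ebf1 virus arrays and 2 on more control virus arrays, and the share over all probes was 7.48%. The difference in detection between the light chain probes and all probes was not tested, because members share loci and sequence.

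Only the probes detected on all 3 arrays of at least 1 group entered the comparison of levels. There were 3 such probes, all in the kappa locus, so 53 of the 56 have no tested change. Igk-V1 and IGKV4-57 passed only through the Ebf1 virus arrays, and no member passed through the control virus arrays alone. The calls and the median below thus come from probes selected in part for being high in Ebf1 virus cells, and give no support for a direction. With limma over 20455 tested probes, 1 of the 3 was called higher in Ebf1 virus cells and 0 were called lower. The background was 11.5% of tested probes called higher and 10.2% called lower. The count of lower calls among the 3 was also 0 at an unadjusted p under 0.05, which 19.2% of tested probes met in that direction. The median log2 change of the 3 was 0.27, against -0.06 over all tested probes. It was 0.03 under normexp and under quantile normalisation, against -0.04 and -0.06 over all tested probes. Under median scaling it was -0.04, against -0.37 over all tested probes. With the filter on all 6 arrays it was -0.06, against -0.1, and without a filter -0.08, against -0.13.

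Igk-V1, a kappa V probe that the array describes as an IgG3 mRNA, was the called one. Its processed signal was 30.5, 38.1 and 38.7 in Ebf1 virus cells and 23.0, 12.9 and 20.4 in control virus cells. Every Ebf1 virus array lay above every control virus array, which held for 18.8% of all tested probes, and 2 of the 3 control virus arrays detected it. On the log2 scale, relative to each array's 75th percentile, it averaged -3.26 ± 0.28 in Ebf1 virus cells and -3.96 ± 0.27 in control virus cells (SD, n = 3 each). The change was 0.70 (SE 0.21, limma adjusted p = 0.0486), or 1.62-fold.

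The call did not hold under every setting. It was lost when any 1 array other than Ebf1 virus replicate 1 was left out (limma adjusted p 0.0525 to 0.16 without each of those 5), and with normexp background correction the change was 0.13 (limma adjusted p = 0.685). On the 1 slide that held an array of each group, Ebf1 virus replicate 1 exceeded control virus replicate 2 by 0.64. The IGKV1-117 probe, which shares 15 positions of the chromosome with Igk-V1, had signals of 1.93 to 2.54 in Ebf1 virus cells and 2.03 to 2.99 in control virus cells and was detected on no array.

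IGKV1-133, the probe paired with Igk-V1 above, read 9.48, 14.5 and 21.2 in Ebf1 virus cells and 8.13, 2.66 and 5.01 in control virus cells. Its groups did not overlap, but only Ebf1 virus replicates 2 and 3 detected it, so it was not tested. The Igk-V probe, which shares 45 positions of the chromosome with it, read 7.59, 14.7 and 24.7 in Ebf1 virus cells and 14.3, 7.44 and 8.08 in control virus cells, and here the groups overlapped.

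IGKV14-111, a kappa V segment, was the only light chain probe detected on all 6 arrays. Its processed signal was 409, 204 and 198 in Ebf1 virus cells and 238, 234 and 193 in control virus cells. The groups overlapped, and Ebf1 virus replicate 1 was the highest of the 6. Its log2 change was -0.06 (SE 0.28, 95% interval -0.71 to 0.59, limma adjusted p = 0.893), and the sign turned under several settings. A probe for the sequence AF152371, which is no member and follows it on the same strand (chr6:68207137-68207196), read 1.98 to 2.60 in Ebf1 virus cells and 2.11 to 3.08 in control virus cells.

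IGKV4-57, a V segment on the minus strand, was detected on all 3 Ebf1 virus arrays and on control virus replicate 1. It read 19.2, 22.8 and 27.7 in Ebf1 virus cells and 34.1, 12.8 and 9.04 in control virus cells, so the control virus arrays held both the highest and the lowest values. Its log2 change was 0.27 (SE 0.36, 95% interval -0.57 to 1.11, limma adjusted p = 0.62), and it was -0.01 between the 2 arrays that shared a slide. Igk-V38, which differs from it at the 2 capital positions shown above, read 4.28, 4.89 and 10.8 in Ebf1 virus cells and 3.12, 3.76 and 3.60 in control virus cells and was detected on no array.

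A further 8 probes, all in the kappa locus, lay just outside the filter, with detection on exactly 2 Ebf1 virus arrays. Replicate 3 was among the 2 in all 8. Only 1 of them, IGKV10-95, was detected on a control virus array. It read 27.4, 11.5 and 15 in Ebf1 virus cells and 23.6, 9.52 and 6.51 in control virus cells, which overlap.

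Igk-V21-4 showed the widest gap between its groups among these 8, a choice made after its values were seen. It read 17.5, 10.3 and 13.2 in Ebf1 virus cells and 2.79, 5.41 and 1.86 in control virus cells. IGKV2-109 read 11.0, 6.53 and 26.6 in Ebf1 virus cells and 7.13, 5.17 and 1.80 in control virus cells. IGKV4-51 read 47.5, 3.53 and 10.6 in Ebf1 virus cells, a wide scatter in which replicate 1 alone was bright, and 4.84, 4.47 and 1.66 in control virus cells.

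By segment name, the IGKV4 family had the most members on the array of the V families (8), and 6 of these were detected on at least 1 Ebf1 virus array and 2 on at least 1 control virus array. Beside IGKV4-57 and IGKV4-51 these were IGKV4-72, IGKV4-71, IGKV4-58 and IGKV4-74. IGKV4-72 and IGKV4-71 were near the detection limit in both groups: IGKV4-72 read 12.7, 10.6 and 13.2 in Ebf1 virus cells and 14.2, 9.86 and 6.61 in control virus cells, and IGKV4-71 read 7.35, 17.4 and 14.1 in Ebf1 virus cells and 11.7, 9.97 and 7.31 in control virus cells. IGKV4-58 was detected on 1 array of each group. The IGKV4-58 and IGKV4-51 probes match at 46 of 49 aligned positions. Of the 6 members named as IGKV1, 1 was detected on any Ebf1 virus array and 0 on any control virus array. This count leaves out Igk-V1 and Igk-V, which have no segment name but overlap the IGKV1-117 and IGKV1-133 probes by 15 and 45 positions. Igk-V1 was detected on 3 Ebf1 virus and 2 control virus arrays, and Igk-V on 2 and 0.

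The 8 members detected on Ebf1 virus replicate 3 and no other array were IGKV4-74, IGKV12-41, IGKV18-36, IGKV7-33, IGKV3-1, BC080787, L18942 and IGLC3. Their signals on that array ran from 11.1 for IGKV3-1 to 20.3 for IGLC3. IGKV12-41 has a second member probe, which was detected on no array and read 2.22 on replicate 3, where the detected one read 16.3. Control virus cells had isolated signals too. IGKV8-16 read 47.2 on control virus replicate 2 and 1.82 to 9.95 on the 3 Ebf1 virus arrays. IGKV13-85 read 15.6 on control virus replicate 1 and 1.75 to 8.04 on the Ebf1 virus arrays. Neither was detected on a second array.

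The detected kappa probes were spread over the locus. Divided into equal lengths from the first to the last probe, the locus had 5 of 13, 6 of 14 and 8 of 20 members detected on at least 1 Ebf1 virus array, with rising coordinate. In control virus cells the counts were 2, 4 and 1. Both strands were represented: 10 of 21 plus-strand and 9 of 26 minus-strand members were detected in Ebf1 virus cells, against 3 and 4 in control virus cells.

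Of the probes whose ends lie over 1 kb apart, L18942 in the kappa locus read 4.85, 9.01 and 16.1 in Ebf1 virus cells and 3.67, 3.23 and 3.94 in control virus cells. Its groups did not overlap in processed signal but did overlap relative to each array's 75th percentile, and only Ebf1 virus replicate 3 detected it. The lambda probes of this kind were detected on no array. The same was true of 8 of the 9 lambda members. IGLC3, from a lambda constant region, was the exception, at 4.04, 4.65 and 20.3 in Ebf1 virus cells and 3.08, 2.80 and 2.09 in control virus cells. All lambda members together ranged from 1.78 to 20.3 in Ebf1 virus cells and from 1.82 to 3.62 in control virus cells. A probe for NAP052591-1, which is no member and lies closest after the last kappa member (chr6:70676183-70676242), read 1.88 to 4.83 in Ebf1 virus cells and 1.86 to 2.80 in control virus cells.

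Genes of the surrogate light chain were higher in Ebf1 virus cells. Of the 7 genes whose products stand beside or in place of the light chain, 6 were tested, 5 were higher in Ebf1 virus cells and 0 lower, with a median log2 change of 7.81 (also with Vpreb3, which no control virus array detected, at its lower bound). Among all tested probes, 11.5% were called higher and 10.2% lower. Igll1, the lambda-like part of the surrogate chain, lies on chromosome 16 as do the lambda genes, and read 32400, 31900 and 25300 in Ebf1 virus cells and 9.78 to 17.0 in control virus cells. Its change was 11.00 (SE 0.14, limma adjusted p = 5.87e-08). Of the control virus arrays, 2 detected Igll1. Vpreb1 changed by 8.20 (SE 0.15) and Cd79b, a signalling partner of the receptor, by 7.42 (SE 0.15). The gene not tested was Cd79a, named outside the rule, which was detected on no array. Cd79a read 8.86, 7.73 and 7.32 in Ebf1 virus cells and 7.2, 2.57 and 3.8 in control virus cells. Vpreb2 read 8580, 8320 and 4290 in Ebf1 virus cells and 12.6, 7.51 and 12.6 in control virus cells, where only 1 of the 3 arrays detected it, so its fitted change of 9.04 (SE 0.27) rests on control signals near background. With normexp the changes were 8.65, 7.80, 6.34 and 6.58 for Igll1, Vpreb1, Vpreb2 and Cd79b. No lambda probe was detected on all 3 Ebf1 virus arrays, and the lambda probes matched the 2 Igll1 probes at no more than 48.0% of aligned positions. The heavy chain gene Ighm, named outside the rule, was bright in both groups, at 26900, 24600 and 24200 in Ebf1 virus cells and 23200, 16800 and 20300 in control virus cells (log2 change 0.07, SE 0.14, limma adjusted p = 0.752).

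Of 15 genes of light chain rearrangement, 14 were tested, 1 was higher and 4 were lower, with a median log2 change of -0.17. Over all tested probes 11.5% were called higher and 10.2% lower. Rag1, a catalytic component of the recombinase, was the higher one, at 145, 120 and 135 in Ebf1 virus cells and 74.8, 62.7 and 48.4 in control virus cells (log2 change 0.86, SE 0.18, limma adjusted p = 0.0131). Its partner Rag2 was detected on no array, with 3.71 to 5.80 in Ebf1 virus cells and 2.86 to 4.38 in control virus cells. Lig4, the ligase of end joining, fell by 0.73 (SE 0.13), Hmgb1, a cofactor of RAG cleavage, fell by 0.89 (SE 0.16), and Polm, a polymerase of end joining, fell by 0.79 (SE 0.16). The Rag1 call was lost under 5 of 16 other settings, with log2 changes of 0.52 to 1.00 over all of them. The Lig4, Hmgb1 and Polm calls were lost without a filter and with the slide as a fixed block, where the log2 changes were -0.82, -0.92 and -0.88, and that of Polm also without control virus replicate 2.

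Of 25 factors that act at light chain enhancers or promoters, 23 were tested, 7 were higher and 1 was lower, and the median log2 change was 0.07. The shares over all tested probes were 11.5% higher and 10.2% lower. Spib, an Ets factor of B cells, changed by 4.95 (SE 0.20, limma adjusted p = 3.94e-06). Pou2f2, an octamer-binding factor detected on 2 of the 3 control virus arrays, changed by 4.30 (SE 0.34) and Foxo1, an activator of the Rag genes, by 1.30 (SE 0.19). The Foxo1 call held under 15 of 16 other settings, with changes of 0.97 to 1.46 over all of them. It was lost with the slide as a fixed block, where the change was 1.02. Mef2c, a factor of lymphoid and myeloid progenitors, fell by 1.61 (SE 0.22). Irf4, which acts with Ets factors at the kappa 3′ enhancer and is named outside the rule, was at least 1.96-fold higher: it read 21.4, 24.4 and 32.4 in Ebf1 virus cells and 9.36, 2.34 and 8.23, on no array well above background, in control virus cells. With normexp the log2 change was 2.24 for Pou2f2, still called, and 0.34 for Irf4 (limma adjusted p = 0.203). The Irf4 call was lost under 5 of 15 other settings: normexp, quantile normalisation, no filter, and without Ebf1 virus replicate 2 or replicate 3. Pax5 was detected on 1 Ebf1 virus array, replicate 3, and was not tested.

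Over all tested probes 21.7% were called in either direction. The other probes in the windows included 6 that were tested, of which 0 were called. Among them, U26471, an antibody sequence on the minus strand of the kappa locus, read 29.7, 38.7 and 31.6 in Ebf1 virus cells and 33.3, 17.5 and 15.1 in control virus cells (log2 change 0.42, SE 0.21, limma adjusted p = 0.197). Rpia, at the end of the kappa window, had a log2 change of -0.83 (SE 0.33), and Hira, in the lambda window, one of -0.66 (SE 0.39), with limma adjusted p-values of 0.117 and 0.267. NAP113085-1, NAP061492-1 and NAP029125-1 had changes of -0.58, -0.84 and -0.28. At an unadjusted p under 0.05, NAP113085-1 and Rpia were lower.

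All 9 markers of the labelled pre-pro-B stage were detected on all 6 arrays, with a summed signal of 230 to 251 times the array's 75th percentile in Ebf1 virus cells and 111 to 136 in control virus cells. Most of the sum in Ebf1 virus cells was Ly6d, which read 67900, 64000 and 52600 there and 8410, 8710 and 7640 in control virus cells. The higher sum thus does not describe the stage as a whole. Of the 9, 2 were called higher and 4 lower, with a median log2 change of -0.15. For this and the marker lists below, the background was 11.5% of tested probes called higher and 10.2% called lower. Ly6d changed by 2.62 and Cd24a by 0.82, while Il7r changed by -1.69, Kit by -1.82, Cd93 by -1.01 and Spn by -1.60. Of 7 measured markers of immature and mature B cells, which do express light chain, 4 were detected on all 3 Ebf1 virus arrays and 1 on all 3 control virus arrays, with sums of 9.80 to 11.5 in Ebf1 virus cells and 16.7 to 19.5 in control virus cells. Nearly all of the control virus sum was Cxcr5, at 6830, 3970 and 5080, against 2210, 1730 and 2240 in Ebf1 virus cells. Cxcr5 was the 1 marker of this list called lower, and 3 were called higher. Cr2 and Fcer2a were at background on every array and Cd22 was detected on 1. The plasma cell markers Prdm1 and Tnfrsf17 were detected on none, and 0 of the 3 tested markers of that list (Sdc1, Xbp1 and Igj) were called, with sums of 258 to 326 in Ebf1 virus cells and 276 to 364 in control virus cells. Almost all of these sums was Igj, which averaged 8.11 in Ebf1 virus cells and 8.28 in control virus cells on the log2 scale. Xbp1 averaged 2.62 and 1.96, and Sdc1 1.58 and 1.48, so the sums do not rank plasma cells against the other lists. All 8 stromal markers were detected on all 6 arrays, with sums of 27.6 to 36 in Ebf1 virus cells and 18.9 to 26.2 in control virus cells, 1 of them (Fn1) called higher. The T cell markers summed to 0.137 to 0.236 in Ebf1 virus cells and 0.261 to 0.343 in control virus cells, and the myeloid markers to 0.193 to 0.319 in Ebf1 virus cells and 0.0901 to 0.133 in control virus cells. In those lists Cd3g was called lower and Csf1r higher. The part of any of these cells in the light chain signals was not tested. The Ebf1 probe above background read 423, 457 and 381 in Ebf1 virus cells and 663, 257 and 336 in control virus cells (log2 change -0.15, SE 0.21). Whether it lies in the deleted part or in the viral insert is not given, so it does not check the labels.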

How the data were processed

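Total RNA of 6 samples was hybridised to Agilent 1-colour arrays. Per the file headers, the authors extracted spot intensities with Agilent Feature Extraction 10.5.1.1, which subtracted background within each array, and probe positions are mm9. The same intensities were also deposited as a joint value file, of which all 260274 values lay within 0.1% of the array files, with column medians of 12.7, 12.3 and 19.7 for Ebf1 virus replicates 1 to 3 and 13.1, 7.62 and 9.07 for control virus replicates 1 to 3, so its values are linear, not centred and not ratios.

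Groups and replicate numbers came from the sample titles. Log2 processed signal was set relative to each array's 75th percentile, spots of a probe were averaged, and a probe was tested when well above background on all 3 arrays of a group. A probe on several spots counted as above background when at least 0.5 of its spots did. limma 3.58.1 (R 4.3.3, with version 1.17.8 of the data.table package) gave two-sided p-values, adjusted by Benjamini-Hochberg over 20455 probes, with a threshold of 0.05. In simulated data on 20447 probes, this comparison recovered 0%, 38%, 78% and 92% of 50 probes each changed by 0.5, 1, 2 and 3 on the log2 scale. The 200 changed probes were drawn at any brightness, while 21.7% of tested probes were called in the data, so recovery there may differ. Where no array of a group was above background, "at least N-fold" sets the brighter group's mean against the dimmer group raised to each array's lowest signal above background. Probe sequences were compared without gaps in Python 3.11.15 (pandas 2.3.3, numpy 2.4.6), calling alike those with 90% identity over 45 or more bases. By that measure 11 members had a like probe and 45 had none.

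The rule for named genes was every tested member, every member above background on at least 1 array, constant region and joining probes, tested neighbours in the windows, and up to 4 genes with the smallest p from each pathway list. Members and lists were chosen with earlier results of these data known. The first slide held control virus replicates 1 and 3, the second Ebf1 virus replicate 1 and control virus replicate 2, and the third Ebf1 virus replicates 2 and 3. The alternatives were normexp correction (offset 50), quantile normalisation, median scaling, other filters and flags, replicate and slide blocks, trend and robust variance, the deposited values and the omission of single arrays. Promoters and proteins of these loci were not used here.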

Additional observations from a re-analysis of the deposited data

How the results depend on the processing

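The single higher call became 0 under normexp, quantile normalisation, median scaling, no filter, detection on all 6 arrays, the slide as a fixed block, and trend and robust variance. It was 1 with the slide as a random block or the deposited table. Leaving out 1 array gave 0 to 2 calls. These included IGKV1-133 without Ebf1 virus replicate 1 (limma adjusted p = 0.021) and Igk-V21-4 without Ebf1 virus replicate 2 (limma adjusted p = 0.0431). The 0 lower calls held under all 16 alternatives. The median of 0.27 was 0.03 under normexp and quantile normalisation, -0.04 under median scaling and 0.20 with the slide as a fixed block. It was -0.06 with detection on all 6 arrays, where 1 probe remains, and -0.08 without a filter, where all 56 probes enter. With 1 array left out it was -0.07 to 0.65. Over all tested probes the median was -0.37 under median scaling, -0.1 with detection on all 6 arrays and -0.13 without a filter.

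For Igk-V1, the change and limma adjusted p were 0.50 and 0.0858 under quantile normalisation, 0.39 and 0.418 under median scaling, which moved the median of all probes to -0.37, 0.70 and 0.195 without a filter, 0.64 and 0.201 with the slide as a fixed block, and 0.70 and 0.0879 with trend and robust variance. IGKV14-111 reversed to 0.03 under normexp and 0.20 with the slide block, and ran from -0.36 to 0.11 with 1 array left out (0.11, 0.06 and 0.10 without Ebf1 virus replicates 2 and 3 and control virus replicate 2). IGKV4-57 reversed to -0.04 under median scaling, -0.01 with the slide block and -0.07 without control virus replicate 3. The causes were not tested.

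The flag for a positive and significant signal raised the probes on all 3 arrays to 17 in Ebf1 virus cells and 8 in control virus cells, and the tested probes to 17. Asking for 1 or 2 arrays gave 20 and 11 in Ebf1 virus cells and 7 and 2 in control virus cells. Leaving out 1 array gave 3 to 8 and 1 to 2, and 3 to 8 tested probes. Leaving out replicate 3 of both groups, chosen after seeing the data, took the probes detected on more Ebf1 virus arrays to 9, against 18.

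With the replicate number as a block, 0 light chain probes were called, and Igk-V1 changed by 0.70 with a limma adjusted p of 0.0648. Over all probes the block gave 1863 higher and 1233 lower calls, against 2350 and 2085. Deviations of same-numbered samples correlated at -0.17, -0.25 and 0.10, so the numbers were not taken to pair the samples, and not every sample correlated best with its own number. Without a filter the counts over all probes were 1341 and 655, with the slide as a fixed block 1270 and 898, and under median scaling 1256 and 2642. Signals near background limit these results. The simulated probes were drawn at any brightness, so their recovery of 0% at a change of 0.5 does not measure this limit.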
